A study of Mus musculus with 24 samples.

Results

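Zeb2 encodes a zinc finger transcription factor that represses epithelial genes and acts in blood cell development. The chromatin around it was described from every deposited peak whose nearest protein-coding RefSeq gene was Zeb2. Overlapping peaks of an assay were merged into regions over all libraries of that assay. This gave 342 of 335089 regions in all, made up of 36 of 58677 H3K4me1 regions, 239 of 197241 PU.1 regions and 67 of 79171 ATAC regions. The gene was chosen by measured values of these data, namely its number of PU.1 regions and the differences between Utx genotypes in PU.1 and in empty-vector ATAC peaks. Those values are given here as a description, with no test.

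Zeb2 belongs to a family of repressors that bind E-box sequences, recruit corepressors such as Ctbp1 and Ctbp2 and interact with Smad proteins of the TGF-beta and BMP pathways. In blood it is known for a role in stem and progenitor cells and in the differentiation of monocytes, dendritic cells and mature lymphocytes. PU.1, the product of Spi1, is an ETS factor that drives myeloid and B cell development and binds sequences with a GGAA core. H3K4me1 is a histone mark of enhancers. ATAC-seq finds open chromatin by the insertion of a transposase.

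The cells were lineage-negative bone marrow progenitors of C57BL/6 mice, that is, marrow depleted of cells with markers of mature lineages. Utx, encoded by Kdm6a, is a demethylase of H3K27. Cells were Utx wild-type, here WT, or Utx knockout, here KO. H3K4me1 was mapped by ChIP-seq in 2 libraries of each genotype and PU.1 in 3 of each. All ATAC cells carried Cas9. In what is called here the Smarca4 set, cells of both genotypes were given an empty guide vector or a gRNA that targets Smarca4, the gene of the nucleosome remodeller Brg1. Each of these 4 groups had 2 libraries. The Chd4 set held WT cells alone, with an empty vector or a gRNA that targets Chd4, the remodeller of the NuRD complex, in 2 libraries each. A protocol gives 7 days in semi-solid medium, 5 days in liquid medium and ATAC-seq 6 days after transduction. It is attached to the Chd4 set but its wording is about Brg1 editing, so which set these days describe is uncertain. The labels name neither the Utx allele nor what drove its deletion, give no age, and leave it unsaid whether replicates came from different animals. Any p-value therefore measures only the spread between libraries, which may be technical.

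A library's list held 43706 to 54654 islands for H3K4me1, 137850 to 171535 for PU.1 and 24833 to 50927 peaks for ATAC. The ATAC lists carry no counts, so their depth is unknown. Each ChIP island has a score, a whole number given by the authors and taken here as its reads. The scores of a list summed to 6928701 to 14212793 for H3K4me1 and to 20353303 to 27783026 for PU.1. Of the progenitor markers, Kit had 26 H3K4me1, 66 PU.1 and 47 ATAC regions, and Cd34 had 5, 22 and 19. Mpo, the granule enzyme of myeloid progenitors, had 0 H3K4me1 regions, and its 8 ATAC regions were all in the Chd4 set and 0 in the Smarca4 set. The T and NK cell markers Cd3e and Ncr1 had 0 H3K4me1 regions each, and the B cell marker Cd79a also had 0.

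Zeb2 lies at chr2:44983512-45117442 (GRCm38, the build named mm10), a span of 134 kb on the minus strand. Its first RefSeq start is at 45117442. Beyond its 3′ end the next protein-coding gene is Gtdc1, 55.8 kb away. Upstream of its start lies a gap of 3697 kb before Acvr2a, an activin receptor gene. The interval nearest to Zeb2 is thus 2010 kb long and lies mostly upstream. The outermost PU.1 regions assigned to Zeb2 began at 44959201 on the 3′ side and 46897001 upstream, and the first ones outside began at 44954801 and 46966801.

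The 250 bases before the first start are shown because regions of all 3 assays overlap them, and because the ATAC region there was absent after Chd4 gRNA. They are taken from RefSeq (GRCm38.p6), chr2:45117443-45117692, minus strand, written 5′ to 3′ in the direction of the gene. Capitals mark a GAGGAA, the PU.1-type ETS core that was searched for.
Zeb2 start 1: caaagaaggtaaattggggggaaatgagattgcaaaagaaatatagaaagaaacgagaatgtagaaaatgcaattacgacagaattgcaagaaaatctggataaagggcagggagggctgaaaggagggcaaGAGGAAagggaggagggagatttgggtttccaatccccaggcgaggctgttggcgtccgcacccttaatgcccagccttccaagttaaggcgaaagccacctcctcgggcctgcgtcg
The GAGGAA began at position -118 from the start, on the strand of the gene. RefSeq gives 3 further starts, at 45113279, 45113253 and 45110277. Each of their windows of 250 bases also held 1 GAGGAA, and the windows of the second and the third start overlap and share it. GAGGAA on either strand occurred in 23.3% of 32851 such windows of all genes. No window held GGAAGT, another ETS core (19.7% of windows), or CACCTG, the E-box that Zeb2 itself is known to bind (17.2%). GATAA, which holds the core of GATA factor sites, occurred once in each of the first 3 windows (22.6%), the latter pair again sharing 1 match. These matches describe the letters only.

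By number Zeb2 had more PU.1 regions than any other gene, 239 against 235 for Adgrl2, 203 for Pde4d, 189 for Cited2 and 177 for Zfp608. It had the fifth most ATAC regions, 67, after Pde4d (78), Runx1 (75), Zmiz1 (72) and Tiam1 (68), and ranked 13 by H3K4me1 with 36. Divided by the length of the interval nearest each gene, Zeb2 was not among the densest. It had 11.9 PU.1 regions per 100 kb, rank 1852 of 6054 genes with an interval of at least 100 kb, where the median was 7.91, the 75th percentile 13.1 and the 95th percentile 19.2. ATAC gave 3.33 regions per 100 kb (rank 2139) and H3K4me1 1.79 (rank 3009). The gene span alone differed from the interval. Its 27 ATAC regions made 20.2 per 100 kb, rank 21 of 2429 gene spans of at least 100 kb, where the median was 2.67. Its 27 PU.1 regions also made 20.2 per 100 kb, rank 117, just above the 95th percentile of 20.1. The locus was therefore PU.1-rich by number and dense inside the gene, but not dense over the whole interval.

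**Figure D1:**
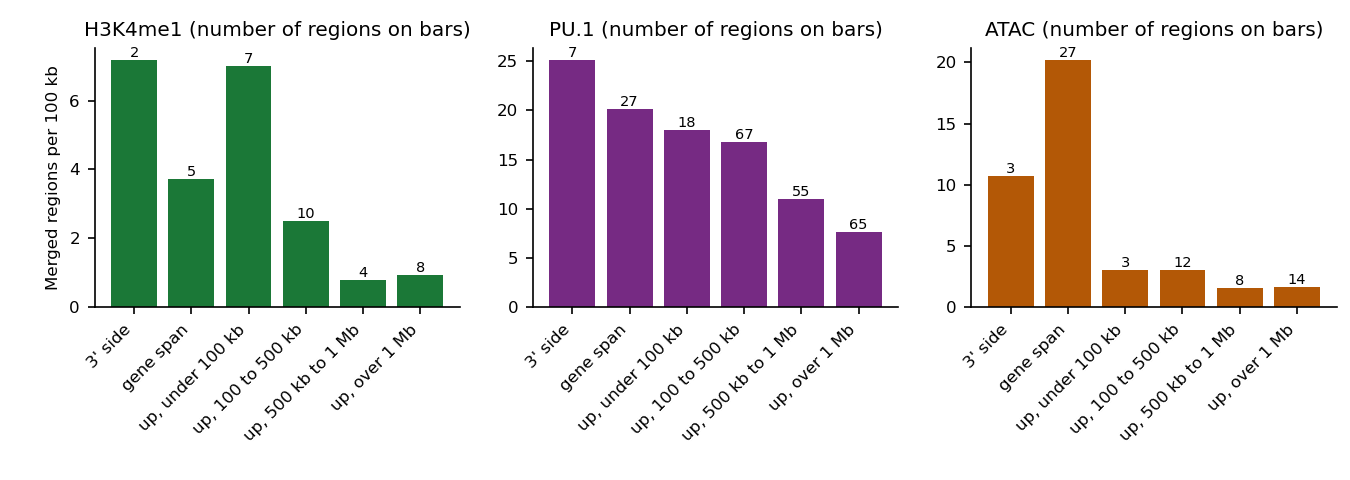
Merged regions per 100 kb (y axis) in 6 parts of the interval nearest Zeb2 (x axis), for each assay, with the number of regions on each bar. ATAC falls from 20.2 in the gene span to 3 in the first 100 kb upstream, while PU.1 falls from 20.2 to 18.

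PU.1 regions reached far upstream. There were 7 regions on the 3′ side, 27 in the gene, 18 in the first 100 kb upstream, 67 from 100 to 500 kb, 55 from 500 kb to 1 Mb and 65 beyond 1 Mb. Per 100 kb this fell from 18 next to the start to 7.66 beyond 1 Mb. ATAC fell from 20.2 per 100 kb in the gene to 3 in the first 100 kb upstream and 1.65 beyond 1 Mb. H3K4me1 had 5 regions in the gene, 7 in the first 100 kb and 8 beyond 1 Mb, but those in the gene were wide. Region H3K4me1 6 (chr2:45022601-45109599) alone covered 87.0 kb of the gene span.

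Most PU.1 regions at Zeb2 met no region of the other assays. H3K4me1 regions overlapped 73 of 239 (30.5%, against 47.2% of all PU.1 regions), and ATAC regions overlapped 35 (14.6%, against 24.97%). In the other direction 33 of 36 H3K4me1 regions (91.7%, against 83.7%) and 47 of 67 ATAC regions (70.1%, against 71.3%) overlapped a PU.1 region. Of the ATAC regions 43 (64.2%, against 76.6%) overlapped H3K4me1. These shares are descriptions, since regions of 1 locus are not replicates.

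**Figure D2:**
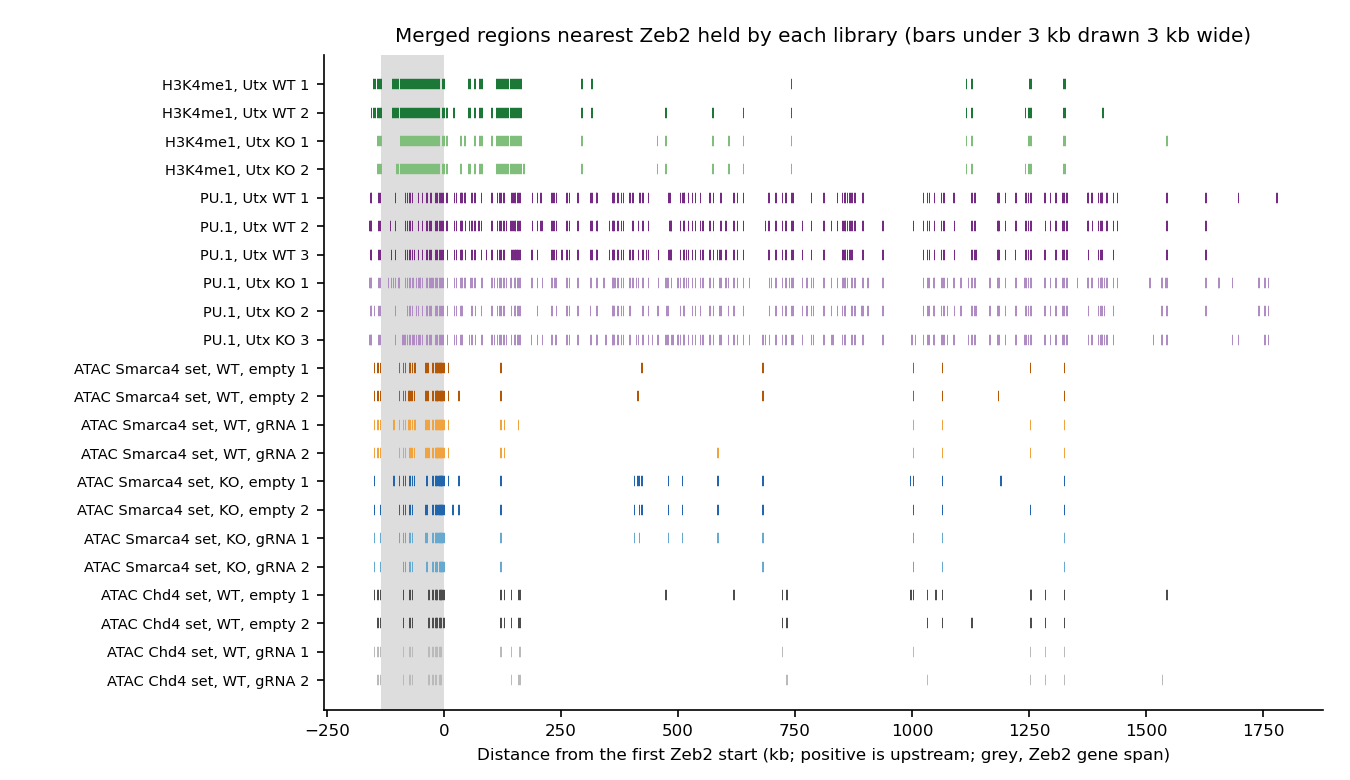
Each row is a library and each bar a merged region in which it had a peak, placed by distance from the first Zeb2 start in kb (x axis, positive upstream), with the gene span in grey. The H3K4me1 block in the gene is seen in all 4 libraries, PU.1 bars run to beyond 1 Mb upstream, and ATAC bars crowd in the gene span.

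The strongest PU.1 binding lay in 2 places. Region PU.1 67 (chr2:45276201-45281599), 161 kb upstream, scored 1776, 2085 and 2234 in the 3 WT libraries and 2358, 1714 and 1901 in the 3 KO libraries. The score of a region is the sum over its islands. Its top island stood above 99.2% of the island scores of its list in every library. Region PU.1 34 (chr2:45105801-45117999), which spans all 4 starts, scored 1453, 1890 and 2126 in WT and 2459, 1695 and 2091 in KO, and its top island stood above 99.8% of its list in each library. The next 3 by score in WT replicate 1 were kept in all 6 libraries too. PU.1 58 (chr2:45244201-45247799, 129 kb upstream) scored 848, 970 and 1049 in WT and 1027, 691 and 820 in KO. PU.1 133 (chr2:45692401-45694799, 576 kb) scored 706, 845 and 873 in WT and 699, 502 and 540 in KO. PU.1 204 (chr2:46369601-46373599, 1254 kb) scored 666, 840 and 673 in WT and 960, 682 and 831 in KO. These scores are not scaled to depth and only rank islands within their list. They were therefore also expressed per 1000000 of the summed score of the list, a scaling added after seeing the data and given without a test. On that scale PU.1 133 had 32.6, 34.2 and 34.7 in WT and 25.2, 24.7 and 21.97 in KO, with every KO value below every WT value. PU.1 58 had 39.2, 39.2 and 41.7 in WT and 37.0, 33.95 and 33.4 in KO, again without overlap, though its raw scores overlapped. WT and KO overlapped on both scales at PU.1 67, PU.1 34 and PU.1 204. The share of all PU.1 regions that separate the genotypes on that scale was not computed. Nothing is therefore read from the separation at PU.1 133 and PU.1 58. As a share of the summed score of the list, Zeb2 took 0.105%, 0.113% and 0.111% in WT and 0.125%, 0.115% and 0.117% in KO, given without a test. Of the 239 PU.1 regions 104 (43.5%) had a peak in all 6 libraries and 44 (18.4%) in 1 library, against 49.99% and 16.4% of all 197241 PU.1 regions.

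H3K4me1 marked the same 2 places. The 87.0 kb region in the gene, H3K4me1 6, scored 2960 and 6257 in WT and 2727 and 2947 in KO. WT replicate 2 had it as 1 island, WT replicate 1 as 5 islands and each KO library as 6 islands. H3K4me1 19 (chr2:45258001-45284599), which holds PU.1 67, scored 486 and 1174 in WT and 970 and 1107 in KO. H3K4me1 7 at the first start (chr2:45113201-45120199) scored 197 and 312 in WT and 310 and 357 in KO. All 3 were present in every library. WT replicate 2 had the largest summed score of its list, so the regions were compared per 1000000 of that sum. H3K4me1 6 then had 427 and 440 in WT and 350 and 341 in KO, with KO lower. H3K4me1 19 had 70.1 and 82.6 in WT and 124 and 128 in KO, and H3K4me1 7 had 28.4 and 21.95 in WT and 39.7 and 41.4 in KO, with KO higher at both. The groups did not overlap at these 3 regions on that scale, while at H3K4me1 19 and H3K4me1 7 the raw scores did. The share of all H3K4me1 regions that separate in this way was not computed. No test was made, so nothing is read from the separation.

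The comparison of Utx KO with WT asks where PU.1 binding depends on this demethylase. A region is called lost when every WT library and no KO library has a peak, and gained in the reverse case. At Zeb2, 13 of 239 PU.1 regions were gained and 6 were lost, where 2.87% of all PU.1 regions were gained and 1.16% lost, and 104 were kept. As these counts were among those that brought the gene forward, nothing is read from them. The called regions were weak. In the KO libraries the gained regions had median scores of 48, 42 and 47, while the kept regions had 179, 127 and 153. In the WT libraries the lost regions had medians of 34, 35.5 and 52, and the kept ones 115, 140 and 156. Regions that were neither kept, lost nor gained had similarly low medians, 43, 44 and 42 in KO and 35, 45 and 38.5 in WT. Low scores were thus not particular to the called regions. Of the gained regions 8 of 13 lay over 1 Mb upstream, and all 6 lost regions lay between 100 kb and 1 Mb upstream.

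The highest-scoring gained region was PU.1 113 (chr2:45592801-45594999, 476 kb upstream), with 202, 112 and 230 in KO and no peak in WT. It overlapped H3K4me1 24, which had a peak in 3 of 4 libraries, scoring 0 and 95 in WT and 151 and 120 in KO. PU.1 23 (chr2:45057601-45058599) was the single gained region in the gene span, with 110, 86 and 116 in KO. PU.1 168 (chr2:45984801-45985399, 868 kb) scored highest among the lost regions in each WT library, with 73, 68 and 85. The other 5 lost regions scored 25 to 70 in WT, and the other 11 gained regions 25 to 126 in KO. Of the latter, the region with 126, 69 and 77 in KO was the farthest but one, at chr2:46871001-46871599, 1754 kb upstream. KO replicate 1 had the most Zeb2 regions, 194, against 139 in KO replicate 2 and 176 in KO replicate 3, and 77 of the 194 were neither kept nor gained, against 22 and 59. Its list was also the longest. Without KO replicate 2 the gained count was 27, and without KO replicate 1 the lost count was 12. A rule over fewer libraries is easier to meet, so such counts can hardly fall.

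**Figure D3:**
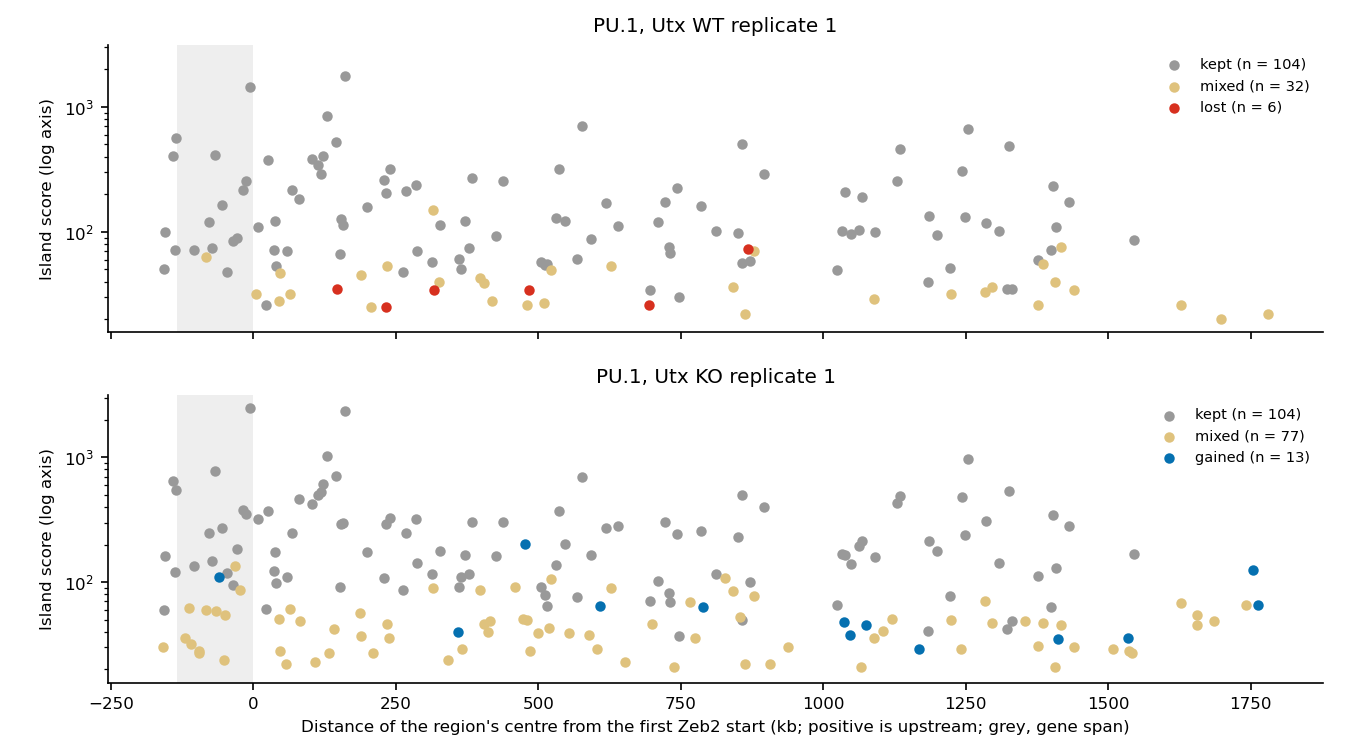
PU.1 score of each Zeb2 region (y axis, log scale) against its distance from the first start in kb (x axis, positive upstream) in WT replicate 1 (top) and KO replicate 1 (bottom), coloured by how the region was called over all 6 libraries. The lost regions lie in the lower part of the range, the gained regions reach from its bottom to its middle, and the highest regions are kept.

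For H3K4me1 the numbers of lost and gained Zeb2 regions were equal. Of 36 regions 3 were lost and 3 gained, where 10.9% of all H3K4me1 regions were lost and 2.15% gained, and 15 were kept. The lost regions were H3K4me1 2 (chr2:44966001-44971999, beyond the 3′ end), with 87 and 234 in WT, H3K4me1 4 (chr2:45005801-45014599, in the gene), with 33 and 219, and H3K4me1 22 (chr2:45431801-45435799, 316 kb upstream), with 57 and 112. The gained regions were H3K4me1 10 (chr2:45151401-45155999, 36.3 kb upstream), with 71 and 114 in KO, H3K4me1 23 (chr2:45572601-45573799, 456 kb), with 37 and 41, and H3K4me1 26 (chr2:45723401-45727999, 608 kb), with 108 and 62. With 1 library left out, when the rule is easier to meet, the lost count was 3 to 6 and the gained count 3 to 8.

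In 2 places both marks were called the same way. H3K4me1 26 holds PU.1 138 (chr2:45724601-45726399), gained, with 65, 79 and 90 in KO. H3K4me1 22 holds PU.1 87 (chr2:45434201-45435199), lost, with 34, 26 and 70 in WT. Over all genes 14.2% of 1357 PU.1 regions in gained H3K4me1 regions were gained, and 3.17% of 5623 in lost H3K4me1 regions were lost. At Zeb2 these were 1 of 4 and 1 of 5.

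The share of a list that fell at Zeb2 was compared next. H3K4me1 gave 5.64 and 5.67 Zeb2 peaks per 10000 peaks in WT and 7.94 and 7.32 in KO. Both KO libraries lay above both WT libraries. The share of all genes that separate in this way was not computed, so nothing is read from this order. The means were 5.66 ± 0.0208 (SD, n = 2) and 7.63 ± 0.436 (SD, n = 2), and the two-sided exact permutation test gave p = 0.333, the smallest that 2 against 2 allows. The difference of 1.97 was 0.726 when only peaks within 50 kb of Zeb2 were counted and 1.21 with the top 50% of each list. The numbers behind it were 29 and 31 peaks in WT and 35 and 32 in KO, against lists of 51394 and 54654 in WT and 44089 and 43706 in KO. Counted as merged regions held, 20 and 30 in WT and 26 and 27 in KO, the groups overlapped. PU.1 gave 10.58, 11.24 and 11.03 per 10000 in WT and 11.89, 10.91 and 11.32 in KO, which overlapped and were not tested.

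**Figure D4:**
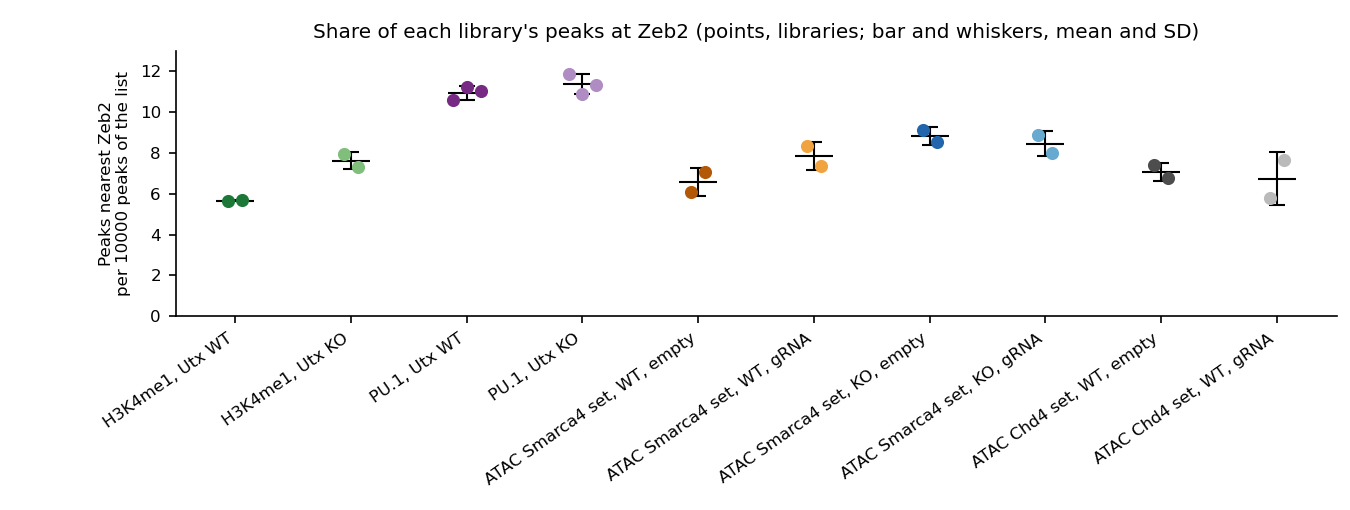
Peaks nearest Zeb2 per 10000 peaks of the list (y axis) in each library (points) of the 10 groups (x axis), with the group mean and SD. The H3K4me1 KO libraries (7.94 and 7.32) lie above the WT libraries (5.64 and 5.67), the PU.1 groups overlap, and in ATAC the empty-vector KO group of the Smarca4 set has the highest mean (8.84).

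Open chromatin at Zeb2 had a constant core in the gene. Of 67 ATAC regions 8 had a peak in all 12 libraries, 7 of them in the gene span. The widest was ATAC 25 (chr2:45107515-45110756), which overlaps the window before the fourth start. ATAC 20 (chr2:45099872-45101411) and ATAC 11 (chr2:45049211-45050326) were the next widest in the gene. The eighth, ATAC 65 (chr2:46443072-46444284), lies 1326 kb upstream and overlaps both an H3K4me1 and a PU.1 region. Over all genes 19.9% of ATAC regions were in every library, against 11.9% at Zeb2.

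**Figure D5:**
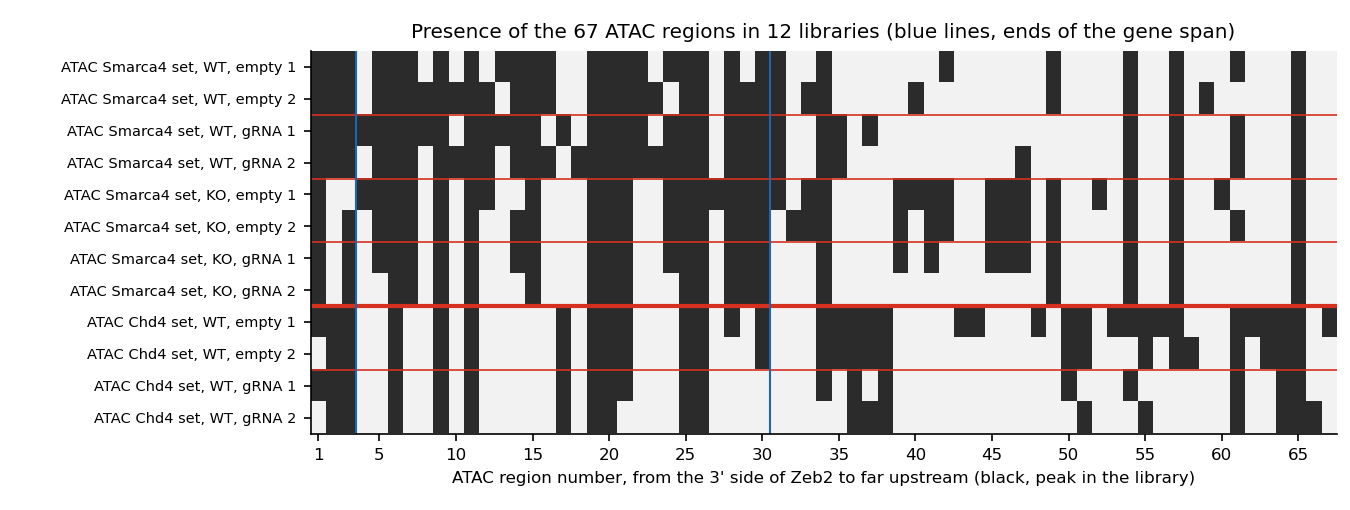
Presence (black) of each of the 67 ATAC regions (x axis, numbered from the 3′ side to far upstream) in the 12 libraries (rows, groups divided by red lines, the 2 sets by the thick line). Regions 39, 41 and 45 to 47 are black in both empty-vector KO libraries and KO gRNA replicate 1, and regions 36, 38 and 64 in the Chd4 set alone.

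The ATAC comparison of Utx KO with WT under empty vector was also among the values that brought the gene forward. Of 47 regions with a peak in these 4 libraries 5 were gained and 3 lost, where 1.93% of all regions were gained and 11.3% lost. The 5 gained regions lay in 1 stretch, 407 to 585 kb upstream. They were ATAC 39 (chr2:45524140-45524495), ATAC 41 (chr2:45534861-45535229), ATAC 45 (chr2:45596598-45596996), ATAC 46 (chr2:45626401-45627366) and ATAC 47 (chr2:45702425-45702906). None of the 5 overlapped an H3K4me1 region, and 1, ATAC 46, overlapped a PU.1 region, which had a peak in 1 of 6 libraries.

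The Smarca4 gRNA libraries were not used for that call. KO gRNA replicate 1 had a peak in all 5 gained regions, and KO gRNA replicate 2 in 0. Over all genes these libraries held 43.9% and 23.1% of 1127 gained regions. WT gRNA replicate 1 held 0 of the 5 and WT gRNA replicate 2 held 1, ATAC 47, where they held 9.76% and 13.3% over all genes. The 4 libraries of the Chd4 set, all Utx WT, held 0. Of the KO libraries that the call did not use, 1 of 2 thus had the gained regions. The other, KO gRNA replicate 2, had the shortest list of the set, 29930 peaks against 35975 in KO gRNA replicate 1. Whether list length accounts for this was not tested. The 5 regions were of 356 to 966 bp, and with the upper 50% of each list by width 1 was gained in place of 5.

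The lost regions were called from the empty-vector libraries of the Smarca4 set, so their presence in those libraries was fixed by the call. Among the lost regions was ATAC 2 (chr2:44976386-44976911), beyond the 3′ end. It had a peak in 8 of 8 Utx WT libraries of both sets and in 0 of 4 KO libraries, as did 386 of 79171 regions (0.488%) over all genes. It lies within H3K4me1 3 and PU.1 5, both present in every library of their assay, with H3K4me1 scores of 193 and 464 in WT and 164 and 161 in KO. ATAC 22 (chr2:45103045-45103417), in the gene, had a peak in the 4 WT libraries of the Smarca4 set, in 0 KO libraries and in 0 of the Chd4 set. The Smarca4 gRNA libraries of WT cells held 2 and 3 of the 3 lost regions, and those of KO cells 0 and 0. Over all genes these shares were 46.8% and 59.6% in WT and 8.81% and 1.81% in KO. The third lost region, ATAC 16 (chr2:45083596-45083887), had a peak in both WT empty-vector libraries and in WT gRNA replicate 2.

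In cells with Smarca4 gRNA the same Utx comparison gave 6 lost and 1 gained of 43 regions, where 12.3% of all regions were lost and 0.782% gained. ATAC 2 and ATAC 22 were again lost, and ATAC 12, ATAC 31, ATAC 35 and ATAC 61 (chr2:46370697-46371549, 1254 kb upstream, within PU.1 204) were lost in addition. Of these, ATAC 31 (chr2:45126430-45126849) and ATAC 12 (chr2:45054200-45054783) had a peak in KO empty replicate 1, and ATAC 61 in KO empty replicate 2. The lost share was near that over all genes. With lists of equal length it was 1 lost and 4 gained.

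The comparison of Smarca4 gRNA with empty vector asks which open regions depend on Brg1. In Utx WT cells 1 of 43 was lost and 1 gained, where 5.96% of all regions were lost and 0.866% gained, and 23 were kept. The lost region was ATAC 49 (chr2:45798787-45799372, 682 kb upstream), which had a peak in both WT empty-vector libraries and all 4 KO libraries and in neither WT gRNA library. The gained region, ATAC 35 (chr2:45246603-45246943, 129 kb upstream, within PU.1 58), had a peak in both WT gRNA libraries and in 0 other libraries of the Smarca4 set. In Utx KO cells 2 of 39 were lost and 0 gained, where 8.43% of all regions were lost and 0.277% gained. The lost regions were ATAC 33 (chr2:45149506-45149786) and ATAC 42 (chr2:45539938-45540309), and both had a peak in 1 of 2 WT empty-vector libraries. A call with 1 library left out is easier to meet, so these counts could rise but hardly fall. In WT there were 4 lost without empty-vector replicate 1 and 4 gained without gRNA replicate 2, and in KO there were 9 lost without empty-vector replicate 2 or without gRNA replicate 1.

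The share of the list at Zeb2 was also compared between Smarca4 gRNA and empty vector, and no difference could pass a threshold with 2 libraries a group. In WT the values were 6.10 and 7.07 per 10000 with empty vector and 8.33 and 7.36 with gRNA. Both gRNA libraries lay above both controls, with means of 6.58 ± 0.687 and 7.85 ± 0.686 (SD, n = 2 each) and an exact permutation p = 0.333, the smallest possible. The share of all genes that separate in this way was not computed, so nothing is read from this order. With the top 50% of each list the WT difference was 0.21 in place of 1.26, and the exact permutation p was 0.667. In KO they were 9.14 and 8.53 with empty vector and 8.90 and 8.02 with gRNA, which overlapped, with means of 8.84 ± 0.431 and 8.46 ± 0.620 (SD, n = 2 each) and an exact p = 0.667. The KO difference of -0.379 turned positive with lists of equal length (0.167), within 50 kb of Zeb2 (0.114) and without gRNA replicate 2 (0.0588). Over both genotypes the mean difference was 0.44 per 10000, with an exact permutation p = 0.444 where 0.0556 was the smallest possible. The numbers of Zeb2 peaks behind these shares were 31 and 36 for WT empty vector, 35 and 34 for WT gRNA, 37 and 35 for KO empty vector and 32 and 24 for KO gRNA.

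After Chd4 gRNA the region at the first Zeb2 start had no peak. ATAC 30 (chr2:45116283-45117678) had a peak in both empty-vector libraries of the Chd4 set and all 8 libraries of the Smarca4 set, and in neither Chd4 gRNA library. It overlaps the printed window, H3K4me1 7 and PU.1 34. In all 4 of 37 Zeb2 regions were lost and 0 gained, where 13.7% of all regions were lost and 0.100% gained, and 15 were kept. The others were ATAC 35, ATAC 57 (chr2:46182710-46183116, 1065 kb upstream) and ATAC 63 (chr2:46372908-46373314, 1256 kb, within PU.1 204). ATAC 57 also had a peak in all 8 libraries of the Smarca4 set, and ATAC 63 in none of them. The Chd4 gRNA lists were the shorter ones, 34429 and 24833 peaks against 48687 and 41480, and with lists of equal length the count of lost regions was 0. Per 10000 peaks Zeb2 took 7.39 and 6.75 with empty vector and 5.81 and 7.65 with gRNA, which overlapped, with means of 7.07 ± 0.455 and 6.73 ± 1.30 (SD, n = 2 each) and an exact permutation p = 1. ATAC 25, at the fourth start, had a peak in every library.

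Zeb2 can be set beside its neighbours, and beside Adgrl2 and Pde4d, which came next after it in number of PU.1 regions. Of 46 PU.1 regions at Gtdc1 0 were lost and 1 was gained between the genotypes, and of 117 at Acvr2a 0 were lost and 7 gained. Adgrl2, of 235, lost 4 and gained 5, and Pde4d, of 203, lost 2 and gained 2. The shares over all PU.1 regions were 1.16% lost and 2.87% gained. Under empty vector 0 of 8 ATAC regions of Gtdc1 were lost and 0 gained, and of 15 of Acvr2a 1 was lost and 1 gained. Of 31 of Adgrl2 0 were lost and 1 gained, and of 64 of Pde4d 9 were lost and 0 gained, where 11.3% of all regions were lost and 1.93% gained. The difference of these genes from Zeb2 was not tested.

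The genes whose pattern over the libraries was most like that of Zeb2 were Kcnab1 (Pearson r = 0.910), Ptprc (0.901), Otogl (0.898), Cdc73 (0.889) and Ptger4 (0.889). The measure was the share of a gene's merged regions held in each of 22 libraries, centred within each assay set, among 1419 genes with enough regions of each assay, whose median r was 0.551. All genes share the libraries and their list lengths, so a high r is common, and the values are a description.

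Genes that act with Zeb2 were counted from a list of 32, all of which had regions. For H3K4me1 in Utx KO 30 of 292 regions were lost and 5 gained (10.3% and 1.71%, against 10.9% and 2.15% of all regions), and for PU.1 17 of 901 were lost and 21 gained (1.89% and 2.33%, against 1.16% and 2.87%). Under empty vector 35 of 266 ATAC regions were lost and 4 gained (13.2% lost, against 11.3% lost and 1.93% gained over all regions). With Smarca4 gRNA 34 of 223 were lost and 0 gained between the genotypes (against 12.3% and 0.782%). The Smarca4 comparison gave 12 lost and 3 gained of 266 in WT (against 5.96% and 0.866%) and 21 lost and 1 gained of 196 in KO (against 8.43% and 0.277%). The Chd4 comparison gave 23 lost and 0 gained of 229 (against 13.7% and 0.100%). Among the Smad and TGF-beta members, 15 of 99 H3K4me1 regions (15.2%, against 10.9% of all) were lost, at 7 of 11 genes, and 0 gained (against 2.15%). Bmpr2, a BMP receptor, lost 4 of 8 and Tgfbr2, a TGF-beta receptor, 3 of 22. PU.1 was lost in 12 and gained in 14 of 280 regions of that group (4.29% lost and 5% gained, against 1.16% and 2.87% over all). Smad6, an inhibitory Smad, lost 5 of 39 PU.1 regions, and Smad3, a receptor-activated Smad, lost 4 and gained 2 of 45. Smad2, Bmpr1a and Bmpr2 each gained 3 PU.1 regions and lost 0, of 32, 9 and 18. Zeb1, the close relative of Zeb2, lost 0 of 10 H3K4me1 and 0 of 41 PU.1 regions between the genotypes (against 10.9% and 1.16% of all). After Chd4 gRNA it lost 3 of its 8 ATAC regions (against 13.7% of all). Of the corepressors, Ctbp2 lost 3 and gained 1 of 10 H3K4me1 regions and Ctbp1 lost 1 of 6 (against 10.9% lost and 2.15% gained of all). Tcf4, a factor of plasmacytoid dendritic cells, lost 4 and gained 2 of 32 H3K4me1 regions (against 10.9% and 2.15% of all). Of its 24 ATAC regions under empty vector 0 were lost and 2 gained (against 11.3% and 1.93% of all). Id2, which acts against E proteins in dendritic and lymphoid cells, lost 6 of 43 ATAC regions under empty vector (against 11.3%) and 8 of 39 with Smarca4 gRNA (against 12.3%). Of the epithelial targets under empty vector, Cdh1, encoding E-cadherin, lost 2 of 4 ATAC regions, the claudin gene Cldn4 1 of 4, the adhesion gene Epcam 0 of 6 and the occludin gene Ocln 0 of 2, against 11.3% of all.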

How the data were processed

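The 22 peak lists deposited by the authors were used, 1 per library. Bowtie2, SICER, Bowtie and MACS2 with mm10 are named in the submitters' processing notes (Bowtie and MACS2 for the Chd4 set), without roles or versions. Column 4 of the deposited ChIP lists is a whole-number score per island on a 200 bp grid, taken as reads, which is inferred from the format. The deposited ATAC lists give start and end, so width replaces the score there. The 2 inputs were not analysed here.

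Peaks of an assay were merged where they overlapped or touched, and each region went to its closest gene span among 21900 that code for protein (RefSeq, GRCm38.p6). Lost, gained and kept were called from presence. Peaks per 10000 were tested between groups with a two-sided exact permutation test of the means. The code was tested on simulated lists. The members, gene lists and tests were chosen with earlier results of these data known. Distance classes, the interval minimum of 100 kb, the gene span ranks, the comparison of the 2 ATAC sets and the motifs were chosen after the values were seen.

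Named were Zeb2, its 2 neighbours, the 5 genes with most PU.1 and the 5 with most ATAC regions, the 5 genes most like it (at least 20 PU.1, 10 ATAC and 5 H3K4me1 regions), the 32 listed genes, and Zeb2 regions that were lost, gained, strongest, at a gene end or in all 12 ATAC libraries; other regions were chosen after their values were seen. Markers of myeloid cells (Itgam with 7 H3K4me1 regions, Csf1r with 3, Ly86 with 24) only describe the libraries, and 1 further marker list is not reported here. Alternatives were a cut to the top 50% of a list, lists of equal length, regions within 50 kb, 50% cover, merging within the comparison, covered bases, same-numbered pairs and each library left out. Computation used Python 3.11.15, numpy 2.4.6, scipy 1.17.1, pandas 2.3.3 and matplotlib 3.10.9.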

Additional observations from a re-analysis of the deposited data

Results flagged for a closer look

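With whole lists, the difference in share of peaks at Zeb2 between Smarca4 gRNA and empty vector had opposite signs in the 2 Utx genotypes. In both same-numbered WT pairs the gRNA library was higher, by 2.23 and 0.292 peaks per 10000. In the KO pairs the difference was -0.246 and -0.513. The difference between genotypes, KO minus WT, was -1.64 per 10000. The exact permutation test of the 4 pair differences gave p = 0.333, the smallest this design allows. The result was flagged because all pair differences of one genotype were positive and all of the other negative. That pattern always gives this p, so the test adds nothing to the flag. The pairs rest on shared replicate numbers, and whether such libraries share a source of cells is not stated. With lists of equal length the difference was -0.668 (exact permutation p = 0.667). The opposite sign did not hold throughout, since the KO effect itself was positive, as in WT, with lists of equal length (0.167), within 50 kb of Zeb2 (0.114) and without KO gRNA replicate 2 (0.0588).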

How the results depend on the processing

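The calls are counts of few, mostly weak peaks, and most moved with the setting. ATAC depth is unknown, and groups of 2 libraries allow no p below 0.333. With the top 50% of each list, gained H3K4me1 regions were 1, PU.1 regions 0 lost and 5 gained, empty-vector ATAC 1 gained in Utx KO, Smarca4 gRNA cells 3 lost and 0 gained in Utx KO, the Smarca4 comparison in WT 0 lost and 0 gained, and the Chd4 comparison 1 lost. The Smarca4 difference in share over both genotypes turned to -0.59 per 10000, that in WT was 0.21, that in KO -1.39, that for Chd4 -1.10 and that for H3K4me1 1.21. With lists of equal length, gained H3K4me1 regions were 6, gained PU.1 regions 7, empty-vector ATAC 1 lost, Smarca4 gRNA cells 1 lost and 4 gained in Utx KO, the Smarca4 comparison 3 gained in WT and 1 lost and 1 gained in KO, and the Chd4 comparison 0 lost. The differences in share turned to 0.167 for Smarca4 in KO and 0.604 for Chd4. Within 50 kb of Zeb2, gained H3K4me1 regions were 1, PU.1 regions 0 lost and 1 gained, gained ATAC regions 0 in both Utx comparisons, the Smarca4 comparison 0 lost and 0 gained in WT and 1 lost in KO, and the Chd4 comparison 1 lost, as distant regions drop out. The differences in share turned to 0.114 for Smarca4 in KO and 0.528 for Chd4, and that for H3K4me1 was 0.726. With 50% cover, PU.1 gained 8, Smarca4 gRNA cells gained 0 in Utx KO, and the Smarca4 comparison had 2 gained in WT and 4 lost in KO. Except where another setting is given, the cause was not tested. Merging within the comparison kept 10 of 10 counts within 1.5 times, and covered bases kept 6 of 6 directions.

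A region is called more easily when a library is left out, so the counts below can rise but hardly fall. Their rise above the counts from all libraries is therefore partly built into the rule. With each library left out, H3K4me1 gave 3 to 6 lost (6 without WT replicate 1) and 3 to 8 gained (8 without WT replicate 2). PU.1 gave 6 to 12 lost (12 without KO replicate 1) and 13 to 27 gained (27 without KO replicate 2). Empty-vector ATAC gave 4 to 7 lost (7 without WT replicate 1) and 6 to 9 gained (9 without KO replicate 2). Smarca4 gRNA cells gave 6 to 11 lost (11 without WT replicate 2) and 1 to 5 gained (5 without KO replicate 2). The Smarca4 comparison gave 1 to 4 lost and 3 to 4 gained in WT (4 lost without empty-vector replicate 1, 4 gained without gRNA replicate 2), and 2 to 9 lost and 0 to 1 gained in KO (9 without empty-vector replicate 2 or gRNA replicate 1). The Chd4 comparison gave 5 to 12 lost (12 without empty-vector replicate 2) and 0 to 1 gained. Differences in share ran from 1.66 to 2.28 for H3K4me1, 0.777 to 1.75 for Smarca4 in WT, -0.818 to 0.0588 for Smarca4 in KO (positive without gRNA replicate 2), -1.26 to 0.579 for Chd4 (positive without gRNA replicate 1), 0.199 to 0.685 over both genotypes and -2.61 to -0.671 between genotypes.

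Whether same-numbered libraries share a source of cells is not stated. Over all regions their deviations from the group means correlated at -0.0173 to 0.0413. That range includes WT against KO, and a low correlation of presence cannot decide whether libraries are paired. With the replicate block the H3K4me1 difference was 1.97 (exact permutation p = 0.5) and the Smarca4 difference over both genotypes 0.44 (exact permutation p = 0.75). As no test here can pass 0.05 with or without the block, this says nothing about stability.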

Other observations

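The 2 ATAC sets differed at Zeb2 about as much as over all regions. In Utx WT cells with empty vector, of 67 regions 10 had a peak in both such libraries of the Chd4 set and neither of the Smarca4 set, and 8 the reverse (14.9% and 11.9%, against 12.8% and 15.96% of all regions). Over all libraries, 3 regions had a peak in all 4 of the Chd4 set and 0 of 8 of the Smarca4 set (4.48%, against 3.44% of all). These were ATAC 36 (chr2:45261904-45262349, 145 kb upstream), ATAC 38 (chr2:45279215-45280174, 162 kb) and ATAC 64 (chr2:46402448-46403074, 1285 kb). ATAC 38 lies in PU.1 67, the region with the highest PU.1 score at Zeb2 in WT, and ATAC 36 lies with it in H3K4me1 19. ATAC 7 (chr2:45033997-45035061) and ATAC 15 (chr2:45080469-45081288), both in the gene, had a peak in all 8 libraries of the Smarca4 set and 0 of 4 of the Chd4 set (2.99%, against 3.03%). The sets also differed at Mpo, with 8 regions against 0, and in the tools named for them, and these cannot be told apart from the set.

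ATAC 35, in PU.1 58, was in both Chd4-set empty-vector libraries, in neither Chd4 gRNA library, and in both WT Smarca4 gRNA libraries but neither WT empty-vector library of the Smarca4 set.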
